A study of Mus musculus with 8 samples.

Results

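The tRNAs that carry alanine, valine, isoleucine and methionine were described in the small RNA-seq of mouse liver cells. The cells were controls or had KAP1, the co-repressor protein encoded by Trim28, knocked down or knocked out. The members are every listed tRNA sequence whose name ends in Ala, Val, Ile or Met and its anticodon. There were 94 of them among 489 tRNA and snoRNA sequences, with 86 in the Hepa 1-6 table, 91 in the hepatocyte table and 83 in both. Each listed sequence comprised a tRNA of 72 to 96 bases with 200 bases of flank on each side.

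Transfer RNAs are made by RNA polymerase III from promoter elements inside the gene, trimmed at both ends, modified, and loaded with their amino acid by a dedicated synthetase. The anticodon reads the codon, and several genes usually carry the same anticodon. Methionine has an initiator tRNA, which starts each protein, and an elongator tRNA, which inserts methionine inside the chain. An adenine at the first position of the anticodon, as in Ala-AGC, Val-AAC and Ile-AAT, is changed to inosine by the Adat2 and Adat3 deaminase.

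Hepa 1-6 is a mouse hepatoma cell line. The control cells (control) received an empty pLKO vector and the knock-down cells (Kap1 KD) a vector with an shRNA against Kap1, and both were selected with puromycin and collected 5 days after transduction. Another label field has the plasmid transfected. The second pair consisted of primary mouse hepatocytes, wild type (WT) or knocked out for Kap1 (Kap1 KO), taken directly after purification. How the knock-out was made, and the strain, age and number of the mice, are not given in the sources used here. Each of these 4 groups had 1 small RNA library, so no difference below has a replicate check and no p-value was computed. Ribosomal RNA was removed with Ribo-zero from the Hepa 1-6 samples and with GeneRead from the hepatocyte samples, so the cell type and the kit cannot be told apart. For Hepa 1-6 cells there was also mRNA-seq, with 2 samples in each of the control and Kap1 KD groups.

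The tables held 26249204 counts for Hepa 1-6 control, 29223566 for Kap1 KD, 3028467 for hepatocyte WT and 11006899 for Kap1 KO. Between 96.0% and 99.4% of them lay on snoRNAs. These are sums over the listed sequences and not the depth of the libraries. All intervals are 95% Clopper-Pearson intervals. They cover counting error alone, because each group had 1 small RNA library. The reads carried no molecular identifiers and may count a molecule more than once, so the intervals may be too narrow even for counting error.

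The names give a chromosome and a tRNA number but no position. The mm9 genome was therefore searched for tRNA folds on the named chromosome, with the same anticodon and length and at least 16 of 17 stem pairs. A single member met a single locus in 24 cases. For 6 members, every locus of the set had the same sequence, and 47 belonged to sets with as many loci as members but several sequences, so that the set is known and the locus of each member is not. A further 4 members stood against another number of loci, and 13 met none. The matched sets comprised 82 loci with 48 distinct sequences. Chromosome 13 held 41 of these loci, between 21259473 and 23622288. A run of TTTT, the letters at which RNA polymerase III ends transcription, stood within 40 bases downstream of 72 loci (87.8%), read on the tRNA strand. The same letters stood in 22.5% of all adjoining 40-base windows of the plus strand of chromosomes 1 to 19 and X. An annotated gene overlapped 15 loci, and the listed window of 6 loci overlapped an annotated exon.

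The sequences below carry the results that follow. They were read from mm9, 5′ to 3′ on the strand given, with the anticodon in capitals. The initiator tRNA of methionine comes first.
Initiator Met-CAT, chr3.tRNA792, chr3:90279782-90279853, minus strand: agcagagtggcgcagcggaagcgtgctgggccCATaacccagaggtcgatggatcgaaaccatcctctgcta

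Val-AAC held the member with the most counts, chr13.tRNA962, which is 1 of 5 members on chromosome 13 with 5 loci and 4 sequences. The sequences are shown because the locus behind the name is not known among them. Val-TAC is shown for comparison, since all its 3 loci share 1 sequence.
Val-AAC, chr13:23377270-23377342, plus strand, and a second locus: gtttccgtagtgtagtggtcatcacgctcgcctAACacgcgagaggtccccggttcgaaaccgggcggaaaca
Val-AAC, chr13:22107660-22107732, minus strand: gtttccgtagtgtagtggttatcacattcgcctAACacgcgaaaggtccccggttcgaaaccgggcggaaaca
Val-AAC, chr13:23390650-23390722, plus strand: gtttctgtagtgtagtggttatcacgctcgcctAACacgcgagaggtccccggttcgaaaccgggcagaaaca
Val-AAC, chr13:23492942-23493014, minus strand: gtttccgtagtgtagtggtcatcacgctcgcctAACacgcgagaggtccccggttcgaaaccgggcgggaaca
Val-TAC, chrX.tRNA459, chrX:157204042-157204114, plus strand: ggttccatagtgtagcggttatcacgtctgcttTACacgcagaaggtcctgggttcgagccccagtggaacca

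Ala-TGC held the member with the most counts in hepatocytes, chr5.tRNA1317, 1 of 2 members on chromosome 5 with 2 loci. The first of the sequences below also lay at chr11:48647931-48648002 (chr11.tRNA2022, minus strand, inside the plus-strand gene Trim7), and the second differs from it by G56A, counted from 1 at the 5′ end of the tRNA. The Ala-CGC sequence is shown because 2 members share it.
Ala-TGC, chr5:125884620-125884691, minus strand: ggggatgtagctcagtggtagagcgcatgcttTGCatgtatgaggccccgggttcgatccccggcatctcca
Ala-TGC, chr5:125889842-125889913, plus strand: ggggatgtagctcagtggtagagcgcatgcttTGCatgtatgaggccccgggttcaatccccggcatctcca
Ala-CGC, chr13.tRNA70 and chr13.tRNA955, chr13:21346089-21346160, plus strand, and a second locus: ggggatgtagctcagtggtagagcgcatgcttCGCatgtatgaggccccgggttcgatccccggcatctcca

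Among the isoleucine tRNAs, Ile-TAT is shown for its intron. Of 5 Ile-TAT members, 4 had an intron of 19 to 22 bases inside the anticodon loop, and the chromosome 13 copy shown here overlapped the annotated miRNA gene Mir1983 on the same strand.
Ile-TAT, chr13.tRNA987, chr13:21988807-21988900, minus strand: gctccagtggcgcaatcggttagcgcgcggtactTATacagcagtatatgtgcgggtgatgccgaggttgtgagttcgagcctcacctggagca

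The first question was which of these tRNAs the libraries contained. The members had 43979 counts in Hepa 1-6 control, 27380 in Kap1 KD, 12345 in hepatocyte WT and 12520 in Kap1 KO. This was 0.168% (interval 0.166 to 0.169), 0.0937% (0.0926 to 0.0948), 0.408% (0.40 to 0.415) and 0.114% (0.112 to 0.116) of all listed counts. The share was lower in Kap1 KD than in control and lower in Kap1 KO than in WT. So was the share of all tRNAs, which went from 4.03% to 2.24% in Hepa 1-6 cells and from 1.54% to 0.649% in hepatocytes. Of tRNA counts alone, the members took 4.15% and 4.19% in the Hepa 1-6 libraries, and 26.5% and 17.5% in hepatocyte WT and Kap1 KO. Few members held most of these counts. In the Hepa 1-6 libraries 1 member held over 50% of the member counts and 17 or 19 held 90%, while in hepatocytes 3 members held 50% and 20 or 23 held 90%. Conversely, 31 members had 10 or fewer counts in every library.

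The composition differed between the pairs far more than within them. Valine tRNAs took 69.2% and 68.2% of member counts in Hepa 1-6 control and Kap1 KD, but 11.4% and 12.6% in hepatocyte WT and Kap1 KO. Alanine tRNAs took 9.23% and 8.88% in the Hepa 1-6 libraries and 57.7% and 58.6% in the hepatocyte libraries. Methionine tRNAs took 17%, 17.8%, 28.9% and 25.9%, and isoleucine tRNAs 4.6%, 5.13%, 2.02% and 2.84%, in the same order. Dividing by the listed length moved these shares by at most 0.1 percentage points. The tables were normalised separately by the authors, and only shares within a library were set side by side in this paragraph. Counts of single members given below are as deposited and are not scaled between libraries.

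**Figure D1:**
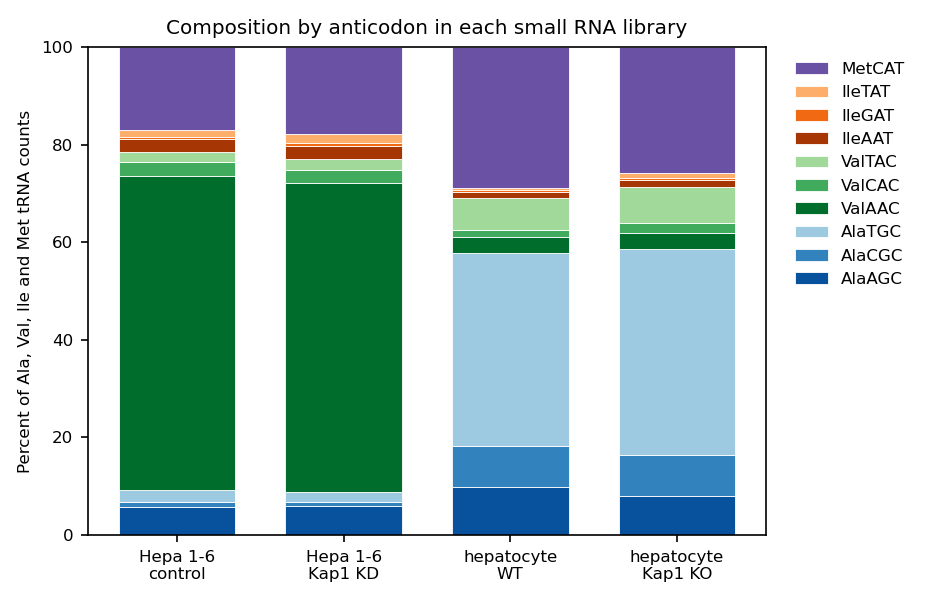
Share of Ala, Val, Ile and Met tRNA counts (y axis, percent) by anticodon in each of the 4 small RNA libraries (bars). Val-AAC fills 64.4% and 63.2% of the Hepa 1-6 bars and Ala-TGC 39.5% and 42.2% of the hepatocyte bars; Val-GAC, with at most 4 counts in a library, is not drawn.

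Val-AAC accounted for most of the valine counts in Hepa 1-6 cells. The member chr13.tRNA962 had 25098 counts in control, 15311 in Kap1 KD, 118 in hepatocyte WT and 97 in Kap1 KO. It was the leading member of both Hepa 1-6 libraries and a minor one in hepatocytes. Its neighbour in the set, chr13.tRNA965, had 2194, 1320, 102 and 88 counts in the same order. Within valine, Val-AAC took 93.1% and 92.8% in Hepa 1-6 control and Kap1 KD and 29.0% and 25.8% in hepatocyte WT and Kap1 KO. Val-TAC took 58.3% and 58.8% in the hepatocyte libraries, where its 3 members had 197 to 439 counts each. The Val-CAC member with the most counts over the 4 libraries was chr13.tRNA97, with 559, 286, 75 and 76 counts. The only Val-GAC member, chr6.tRNA651, had 1, 4, 0 and 1 counts, and 0 of 1404 valine counts in hepatocyte WT allows a share of up to 0.262%.

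Hepa 1-6 cells had mostly initiator methionine counts and hepatocytes mostly elongator counts. Of the 18 methionine members, 9 belonged to sets of initiator sequence (recognised by a C directly before the anticodon) and 7 to sets of elongator sequence, and 2 met no locus. Initiator members had 5879 counts in Hepa 1-6 control and 3758 in Kap1 KD, which was 80.7% (interval 79.8 to 81.6) and 81.1% (80.0 to 82.2) of the classed methionine counts. In hepatocytes they had 195 and 217 counts, or 5.52% (4.79 to 6.33) in WT and 6.79% (5.94 to 7.72) in Kap1 KO. A single member decided this. The initiator chr3.tRNA792 had 5645 and 3650 counts in the Hepa 1-6 libraries and 32 and 61 in hepatocyte WT and Kap1 KO, and the other 8 initiator members together had 234, 108, 163 and 156 counts. Its mature sequence is also that of 6 of the 7 initiator loci on chromosome 13, whose leading members were chr13.tRNA108 in Hepa 1-6 cells (179, 76, 6 and 12 counts) and chr13.tRNA983 in hepatocytes (20, 11, 147 and 130 counts). The remaining initiator locus of chromosome 13 differs by G51A and that of chr15.tRNA876 by G23A, both counted from 1 at the 5′ end. The elongators chr15.tRNA913 and chr8.tRNA783 led in hepatocytes, with 1400 and 1399 counts in WT and 1302 and 1285 in Kap1 KO.

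The leading alanine anticodon was Ala-AGC in Hepa 1-6 cells and Ala-TGC in hepatocytes. The Ala-TGC member chr5.tRNA1317 had 3689 counts in hepatocyte WT and 4137 in Kap1 KO, against 548 in Hepa 1-6 control and 264 in Kap1 KD, and held 29.9% and 33% of all member counts in the hepatocyte libraries. Among Ala-AGC members, chr13.tRNA66 had 695, 617, 464 and 389 counts in Hepa 1-6 control, Kap1 KD, hepatocyte WT and Kap1 KO, and chr13.tRNA71 had 1147, 515, 86 and 37. Of the Ala-CGC members, chr4.tRNA626 led in Hepa 1-6 cells and had 254, 149, 156 and 264 counts, and chr13.tRNA70 led in hepatocytes and had 45, 17, 375 and 345. Isoleucine members were low throughout. Over the 4 libraries chr11.tRNA393 had the most Ile-AAT counts, with 514, 211, 70 and 94, although chr13.tRNA990 was higher in Kap1 KD (243). The only Ile-GAT member was chr2.tRNA1506, with 174, 207, 30 and 42. Over the 4 libraries chr17.tRNA516 had the most Ile-TAT counts, with 184, 109, 23 and 36, although chr1.tRNA583 was higher in Kap1 KD (123).

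**Figure D2:**
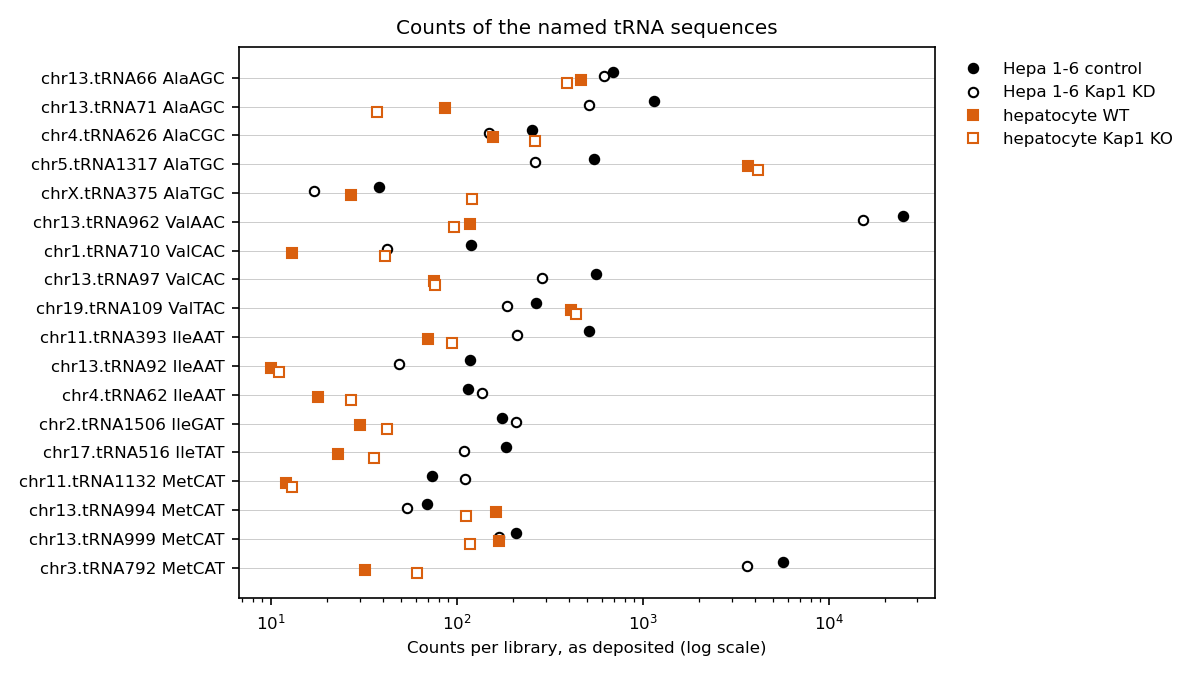
Counts as deposited (x axis, log scale) of 18 named members (y axis) in Hepa 1-6 (circles) and hepatocytes (squares), filled for control or WT and open for Kap1 KD or Kap1 KO. chr13.tRNA962 and chr3.tRNA792 lie at 3650 counts or above in Hepa 1-6 and at 118 counts or below in hepatocytes, and chr5.tRNA1317 is highest in hepatocytes.

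Members that share a sequence had equal counts in some sets and not in others. The 2 Ala-CGC members with 1 sequence had 375 and 375 counts in hepatocyte WT and 345 and 344 in Kap1 KO. The introns of chr13.tRNA969 and chr13.tRNA987, both Ile-TAT, differ, but these members had 11 counts each in WT and 17 each in Kap1 KO. By contrast the 3 Val-TAC members with 1 sequence differed 2.10-fold in WT, from 197 to 413 counts. The 2 Ala-AGC members chr3.tRNA29 and chr5.tRNA110 share a sequence and differed 39.0-fold in Hepa 1-6 Kap1 KD, with 78 and 2 counts. In Hepa 1-6 control, 3 Val-CAC members with 1 sequence ranged from 1 to 119 counts. How reads that fit several copies were counted is not given in the sources used here, so members of a set are not independent measurements and their single values are uncertain.

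The next question was whether these tRNAs differed between Kap1 KD and control Hepa 1-6 cells. Counts were scaled by TMM over all listed sequences with at least 50 counts in the pair, and the log2 ratio of Kap1 KD over control was taken with 0.5 added to each count. Of 86 members, 56 passed 50 counts, and their median log2 ratio was -0.09, beside -0.01 over all 339 sequences that passed and -0.18 over tRNAs of other amino acids. At least 1.5-fold lower were 9 of the 56 members (16.1%), where 18.9% of all sequences and 24.8% of all tRNAs were, and at least 1.5-fold higher were 5 (8.93%), where 15.3% and 6.91% were. These shares were near or below the background. The summed member counts had a log2 ratio of -0.06 (interval -0.09 to -0.04). The leading members hardly differed, with chr13.tRNA962 at -0.09 (-0.12 to -0.06) and chr3.tRNA792 at -0.01 (-0.07 to 0.05).

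Single anticodons lay on both sides of 0 in Hepa 1-6 cells. The Ala-TGC sum was at -0.36 (-0.51 to -0.21), with all 5 members that passed below 0, and the Ala-CGC sum at -0.32 (-0.55 to -0.10), with all 4 below 0. Ile-AAT was at -0.16 (-0.29 to -0.02), but its members ranged from -0.78 to 0.87 and the sum turned to 0.12 without chr11.tRNA393. The Ala-AGC, Val-TAC and Met-CAT sums were at 0.01, 0.04 and 0.01, Val-AAC at -0.09 and Val-CAC at -0.07, which turned to 0.13 without chr13.tRNA97. Ile-TAT was at 0.27 (0.09 to 0.44), and its 4 intron-bearing members ranged from -0.13 to 0.57. These signs rest on the scaling, since total counts put the sums given here below 0 and Ile-GAT at 0.10, and total tRNA counts put Val-CAC at 0.01. Shares within an amino acid do not depend on the scaling. Ala-AGC went from 61.3% (59.8 to 62.8) to 66.9% (65.0 to 68.8) of alanine counts and Ala-TGC went from 26.8% (25.4 to 28.2) to 22.7% (21.1 to 24.4), while Ile-AAT went from 61.8% (59.6 to 63.9) to 51.9% (49.3 to 54.6) of isoleucine counts and Ile-GAT from 8.61% (7.42 to 9.92) to 14.7% (12.9 to 16.7).

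The largest increases with at least 100 counts were those of the Met-CAT member chr11.tRNA1132, which was 2.31-fold higher in Kap1 KD (73 and 110 counts, log2 ratio 1.21, interval 0.77 to 1.66), chr4.tRNA62 of Ile-AAT (114 and 136 counts, 0.87, 0.51 to 1.25) and chr2.tRNA1506 of Ile-GAT (174 and 207 counts, 0.87, 0.57 to 1.17). The largest decreases were those of chr1.tRNA710 of Val-CAC, at 0.547 times the control level (119 and 42 counts, -0.87, -1.43 to -0.36), chr11.tRNA393 (514 and 211 counts, -0.66, -0.90 to -0.43) and chr13.tRNA92 (117 and 49 counts, -0.63, -1.15 to -0.14), both Ile-AAT. Scaling by total counts in place of TMM lowered every Hepa 1-6 log2 ratio by the same amount (a shift of -0.78), which put 38 of the 56 members at least 1.5-fold lower and 0 higher.

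In hepatocytes most members were lower in Kap1 KO than in WT. Of 91 members, 39 passed 50 counts, with a median log2 ratio of Kap1 KO over WT of -0.77, beside -0.09 over all 261 sequences that passed, -0.55 over tRNAs of other amino acids and 0.66 over snoRNAs. At least 1.5-fold lower were 25 of the 39 members (64.1%), where 34.9% of all sequences, 51.2% of all tRNAs and 47.2% of the tRNAs of other amino acids were, and at least 1.5-fold higher were 2 (5.13%), where 27.2% and 12.0% of all sequences and all tRNAs were. The summed member counts were at 0.596 times the WT level (log2 ratio -0.75, interval -0.78 to -0.71). Fewer cells of a type and less RNA per cell cannot be told apart in such bulk samples. The total on the listed sequences differed 3.63-fold between these libraries, and its part in the result was not tested. Total counts, median-of-ratios and total tRNA scaling gave member medians of -1.86, -0.68 and -0.62, with 37, 23 and 21 members at least 1.5-fold lower.

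**Figure D3:**
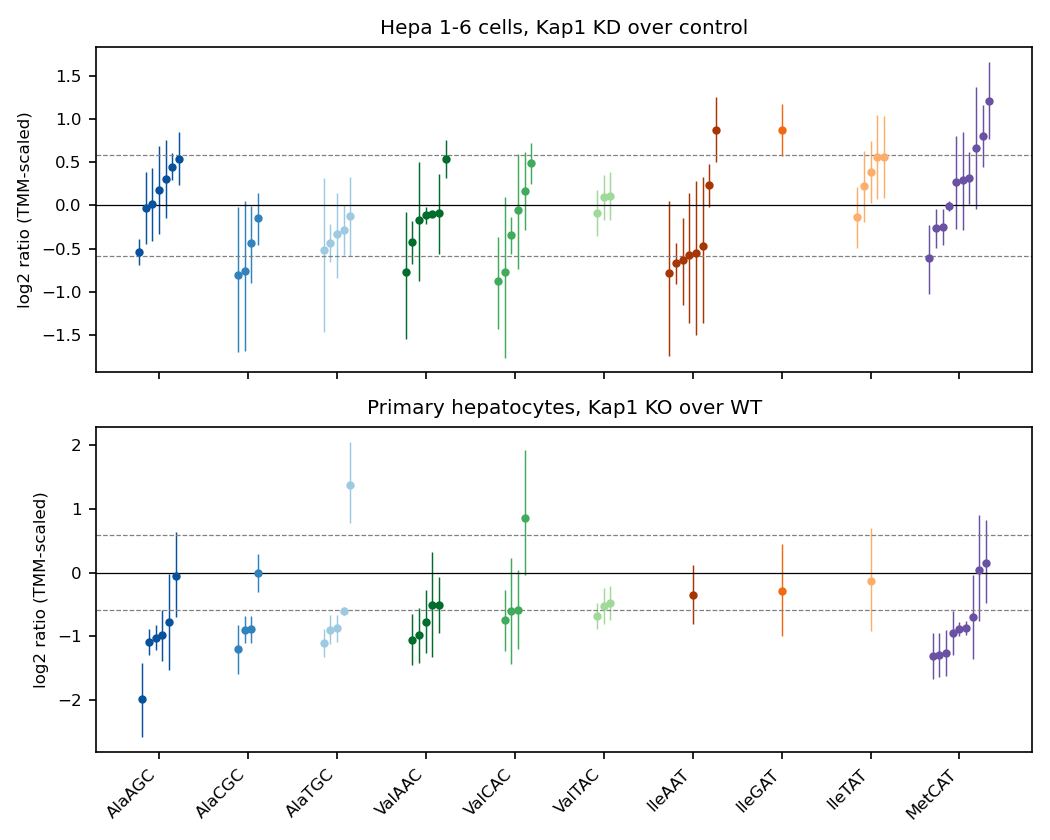
Log2 ratio (y axis, TMM-scaled) of each member with at least 50 counts in the pair (points), by anticodon (x axis), for Hepa 1-6 (top) and hepatocytes (bottom). Lines are 95% counting intervals and dashed lines mark 1.5-fold; 25 of 39 points lie below the lower dashed line in hepatocytes and 9 of 56 in Hepa 1-6.

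By amino acid, the sums were at -0.90 for methionine, -0.72 for alanine, -0.60 for valine and -0.26 for isoleucine. The Ala-AGC sum was at -1.05 (-1.17 to -0.92), Met-CAT at -0.90 (-0.97 to -0.83), Val-AAC at -0.77 (-0.97 to -0.57), Ala-CGC at -0.74 (-0.87 to -0.62), Ala-TGC at -0.65 (-0.71 to -0.59) and Val-TAC at -0.59 (-0.72 to -0.45). Ile-AAT was at -0.40 (-0.71 to -0.09) and Val-CAC at -0.33 (-0.61 to -0.04), and the Ile-GAT and Ile-TAT sums, at -0.29 (-0.99 to 0.45) and 0.03 (-0.41 to 0.49), had intervals that included 0 (Ile-TAT turned to -1.06 with total counts). At least 1.5-fold lower were 12 of 15 alanine, 7 of 9 methionine, 6 of 12 valine and 0 of 3 isoleucine members. Over all tRNAs 51.2% were, and over all sequences 34.9%. All 6 elongator methionine members that passed were at least 1.5-fold lower, from -1.31 to -0.70. Of the 2 initiator members that passed, chr13.tRNA983 was at -0.94 (-1.30 to -0.59) and chr3.tRNA792 at 0.15 (-0.48 to 0.83). The initiator sum was at -0.61 (-0.90 to -0.33). On chromosome 13, 17 of 19 members were at least 1.5-fold lower and 0 higher, and on the other chromosomes 8 of 20 were lower and 2 higher. The share among other tRNAs on chromosome 13 was not taken, so nothing particular to these members can be read from it. Several of these members had near-equal counts and are not independent, such as chr13.tRNA70 (375 and 345) and chr13.tRNA955 (375 and 344). Among the alanine counts, Ala-AGC went from 17% (16.1 to 17.9) to 13.6% (12.8 to 14.4) and Ala-TGC from 68.3% (67.3 to 69.4) to 71.9% (70.9 to 72.9), each opposite to its move in Hepa 1-6 cells. The member chr5.tRNA1317 held 75.7% of these Ala-TGC counts in WT and 78.4% in Kap1 KO.

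The largest decreases in hepatocytes with at least 100 counts were those of chr13.tRNA71 of Ala-AGC, at 0.255 times the WT level (86 and 37 counts, log2 ratio -1.97, interval -2.58 to -1.41), and of the elongators chr13.tRNA994 (163 and 112 counts, -1.31, -1.67 to -0.95) and chr13.tRNA999 (168 and 117 counts, -1.29, -1.64 to -0.94). Next to chr13.tRNA994 in value, chr13.tRNA61 of the same elongator set had 163 and 116 counts. At the other end stood chrX.tRNA375 of Ala-TGC, 2.60-fold higher in Kap1 KO (27 and 121 counts, 1.38, 0.79 to 2.06), followed by chr4.tRNA626 of Ala-CGC (-0.01, -0.30 to 0.29) and chr11.tRNA393 of Ile-AAT (-0.34, -0.80 to 0.13), which are the next highest and not increases. Among members with fewer counts, chr1.tRNA710 of Val-CAC was 1.81-fold higher, on 13 and 41 counts, with an interval that included 0 (0.85, -0.04 to 1.91). Of the other members named by the rule, chr5.tRNA1317 (-0.60, -0.67 to -0.54), chr13.tRNA962 (-1.05, -1.45 to -0.65), chr13.tRNA66 (-1.02, -1.22 to -0.82), chr19.tRNA109 of Val-TAC (-0.68, -0.88 to -0.48) and chr13.tRNA97 (-0.75, -1.23 to -0.27) were past 1.5-fold, whereas chr2.tRNA1506 (-0.29) and chr17.tRNA516 (-0.13) were not. With total tRNA counts, chr5.tRNA1317 (-0.45) and chr19.tRNA109 (-0.53) were no longer past it, and neither was chr5.tRNA1317 with median-of-ratios scaling (-0.51) or with no minimum (-0.53).

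Members for which the search, with its conditions on stems and loop bases, met no tRNA fold are given separately, a grouping made after the values were seen. In hepatocytes 4 of these 13 members passed 50 counts and had log2 ratios from -0.29 to 0.04, with 0 of 4 at least 1.5-fold lower, while 25 of the 35 members with a fold were. In Hepa 1-6 cells 8 of them passed and had a median of 0.46 and a range from -0.15 to 1.21, beside a median of -0.12 for the 48 members with a fold. The difference was not tested.

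Across both pairs, 38 members passed 50 counts in each. Lower in both were 20 of them, higher in both was 1, lower in Hepa 1-6 and higher in hepatocytes were 3, and higher in Hepa 1-6 and lower in hepatocytes were 14. At least 1.5-fold lower in both were 3 members and at least 1.5-fold higher in both 0. For comparison, 56 of 124 tRNAs of other amino acids and 82 of all 254 sequences were lower in both, and 11 and 15 of them at least 1.5-fold. Higher in both were 8 of the 124 and 76 of the 254, and 1 and 30 of them at least 1.5-fold. Lower in Hepa 1-6 and higher in hepatocytes were 26 of the 124 and 37 of the 254. Higher in Hepa 1-6 and lower in hepatocytes were 34 and 59.

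The mRNA of Hepa 1-6 cells allowed a check of the knock-down and of the proteins that make and use these tRNAs. Trim28 (ENSMUSG00000005566, mm9 chromosome 7, from 13609501 to 13616384, plus strand) had 456 and 575 TMM-normalised CPM under the empty vector and 106 and 78.9 under the shRNA, so the groups did not overlap, with a log2 fold change of -2.48 ± 0.25 (SE). The adjusted p in edgeR's quasi-likelihood test was 1, and in this fit 0 genes of 14142 passed both thresholds (a 1.5-fold change and an adjusted p under 0.05, called 0%), with 185 genes at an unadjusted p under 0.05 and 3 genes called by DESeq2, Trim28 among them. The small RNA tables hold no mRNA, so the knock-down and the knock-out were not checked in those libraries. The tested hepatocyte or hepatoma markers had lower means in Kap1 KD, and the groups overlapped for Hnf4a. Alb had 1580 and 1040 CPM in control and 975 and 441 in Kap1 KD, Afp 697 and 750 against 604 and 445, Hnf4a 110 and 203 against 85.4 and 149, and Apoa1 0.323 and 0.423 against 0.117 and 0.171. Ttr was at 0 to 11 counts. None of these passed edgeR's thresholds in the fit without a replicate block, and their part in the small RNA values was not tested. The immune, endothelial and stromal markers Ptprc, Cd68, Pecam1, Kdr, Col1a1 and Col3a1 were at 7.42 CPM or below, with Ptprc at 4 to 8 counts and Kdr at 0 to 1. Of them Col1a1 was at 0.575 and 1.03 CPM in control and 1.10 and 1.52 in Kap1 KD.

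No tested gene of the tRNA pathway passed the thresholds of edgeR in mRNA. Of 70 listed genes 69 were tested, 0 were called and 0 had an unadjusted p under 0.05, and their median log2 fold change was -0.01, beside -0.02 over all genes tested. The 13 subunits of RNA polymerase III ranged from -0.27 to 0.36, and the 11 initiation factors and the repressor Maf1 from -0.28 to 0.19. Maf1, which represses RNA polymerase III, had 55.0 and 72.8 CPM in control and 60.5 and 85.4 in Kap1 KD (0.19 ± 0.27, SE). Brf1, a subunit of the initiation factor TFIIIB, had 23.8 and 26.2 CPM in control and 21.3 and 25.2 in Kap1 KD (-0.10 ± 0.21). In both genes the values of the groups overlapped.

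The synthetases of the 4 amino acids lay between -0.28 and 0.26 on the log2 scale. Aars, for alanine, had 274 and 325 CPM in control and 284 and 351 in Kap1 KD (0.09 ± 0.20, SE). Vars, for valine, had 364 and 467 in control and 382 and 610 in Kap1 KD (0.26 ± 0.29). Iars, for isoleucine, had 245 and 248 in control and 208 and 199 in Kap1 KD (-0.28 ± 0.16). Among these cytoplasmic synthetases its groups alone did not overlap. How many of all tested genes had groups that did not overlap was not counted, here or for the markers. Mars, for methionine, had 196 and 228 in control and 212 and 245 in Kap1 KD (0.11 ± 0.18). All had an adjusted p of 1 in edgeR without the replicate number as a block. With that block, edgeR's quasi-likelihood test gave adjusted p of 6.6e-05 for Iars and 0.000524 for Vars, both at less than 1.5-fold. It gave 0.302 for Aars and 0.191 for Mars. Among the modifying enzymes, Adat2 and Adat3, which make inosine in the anticodon, were at -0.11 ± 0.22 and 0.36 ± 0.34, and Adat1, which acts next to the anticodon of alanine tRNA, at 0.01 ± 0.21. Adat3 had 7.04 and 8.38 CPM in control and 7.28 and 12.5 in Kap1 KD. Eif2s1, a subunit of the factor that brings the initiator tRNA to the ribosome, had 184 and 131 CPM in control and 194 and 129 in Kap1 KD (0.04 ± 0.29). The 19 tested genes of end processing, splicing and export ranged from -0.29 to 0.27. That a difference missed the threshold does not show that these genes did not differ.

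**Figure D4:**
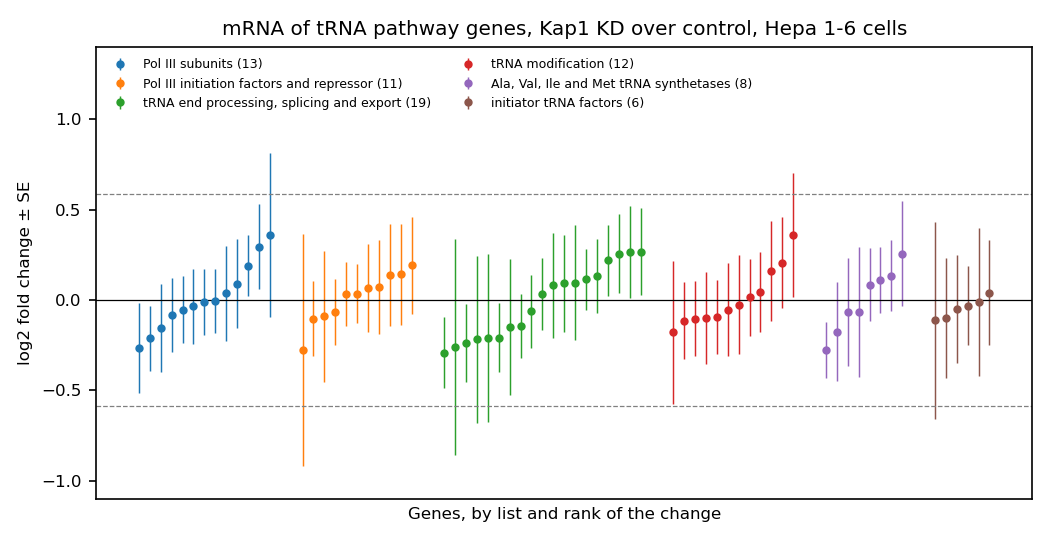
Log2 fold change of Kap1 KD over control (y axis, points, with SE as lines) in Hepa 1-6 mRNA for the 69 tested genes of the tRNA pathway, by list (colours) and ranked within it (x axis). All points lie between the dashed lines that mark 1.5-fold.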

How the data were processed

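The small RNA tables deposited by the authors hold raw counts for each tRNA or snoRNA sequence. They also hold a deposited normalised signal, equal to the count over a library factor, and a length-scaled signal, and both were only checked. The aligner and the counting of reads that fit several copies are not given in the sources used here for these tables. In the hepatocyte table the 2 columns of each library were identical and counted once. For mRNA-seq the authors deposited counts per Ensembl gene (mm9; TopHat2 2.0.11 and HTSeq 0.6.1 in the submitters' processing notes), with 41566888 to 53605115 counts per sample. All 22 columns of values were mapped.

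Ratios used TMM (edgeR 4.0.16, R 4.3.3), at least 50 counts per pair and 0.5 added. DESeq2 1.42.0 gave median-of-ratios factors and an alternative test. mRNA was tested with edgeR's quasi-likelihood F test after filterByExpr, with Benjamini-Hochberg adjustment, and standard errors are the log2 fold change over the square root of F. Nothing states that the mRNA samples came from separate cultures, so p-values measure only the spread between these samples. Symbols were found in the mm9 annotation for 21806 of 21915 identifiers. Some sequences are not reported here. tRNA folds were searched in mm9 by rule (acceptor, anticodon and T stems, 16 of 17 pairs). The rule also asked for a variable loop of set length and for set bases in the D and T loops and beside the anticodon. A member that met no locus may therefore come from a tRNA that fails one of these conditions.

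Named were, per anticodon, the member with the most counts, the 3 strongest ratios in either direction per pair (100 counts or more), and Trim28, Aars, Vars, Iars, Mars, Maf1, Brf1, Adat1, Adat2, Adat3 and Eif2s1. Members named beside these, and the groups by chromosome and by fold, were chosen after their values were seen. The members and the gene lists were chosen with earlier results of these data known. Both calculations were tested on simulated data, with independent mRNA samples and with counting error alone in small RNA. These settings are simpler than the real samples, so the outcome does not vouch for the values given here. Alternatives covered scaling, the added count, the minimum, the threshold, the test, the filter, the replicate block and leaving out each mRNA sample.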

Additional observations from a re-analysis of the deposited data

Results flagged for a closer look

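In 2 members the log2 ratio was past 1.5-fold in opposite directions in the 2 pairs, with 1 library per group and no test of the difference. The same held for 6 and 2 (by direction) of 124 tRNAs of other amino acids and for 7 and 3 of all 254 sequences, beside 1 and 1 of 38 members. The Val-CAC member chr1.tRNA710 was at -0.87 in Hepa 1-6 cells (119 and 42 counts) and at 0.85 in hepatocytes (13 and 41 counts, interval -0.04 to 1.91). The elongator Met-CAT member chr13.tRNA99, chosen after its values were seen, was at 0.66 in Hepa 1-6 cells (36 and 37 counts, interval -0.04 to 1.36) and at -0.70 in hepatocytes (40 and 42 counts, interval -1.36 to -0.04).

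Within alanine, the Ala-AGC and Ala-TGC shares each moved in opposite directions in the 2 pairs, with intervals that did not overlap in either. This difference was not tested either. The Ala-CGC share was -1.5 points from control in Kap1 KD and -0.1 points from WT in Kap1 KO, with overlapping intervals in both pairs. Ala-AGC gained 5.6 percentage points in Kap1 KD Hepa 1-6 cells and was -3.4 points from WT in Kap1 KO hepatocytes. Ala-TGC was -4.1 points from control in Kap1 KD and 3.6 points above WT in Kap1 KO. In hepatocytes the member chr5.tRNA1317 held 75.7% of the Ala-TGC counts in WT and 78.4% in Kap1 KO. Without it, Ala-TGC had 1182 of 3438 alanine counts in WT and 1142 of 3204 in Kap1 KO. No interval was computed for these shares.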

How the results depend on the processing

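In Hepa 1-6 cells, the members at least 1.5-fold lower and higher, 9 and 5 as reported, were 38 and 0 with total counts, 7 and 9 with total tRNA counts, 15 and 20 with no minimum beyond 1 count, 3 and 3 with a minimum of 200 counts and 0 and 1 at a 2-fold threshold. In hepatocytes, 25 and 2 as reported, they were 37 and 0 with total counts, 43 and 12 with no minimum, 20 and 0 with a minimum of 200 and 9 and 1 at 2-fold. Against tRNA counts only, the member shares were 4.15%, 4.19%, 26.5% and 17.5% in place of 0.168%, 0.0937%, 0.408% and 0.114%. The hepatocyte ratio of chr1.tRNA710 turned to -0.24 with total counts, as did, among uncalled values, that of chr3.tRNA792 (-0.94) and the Hepa 1-6 ratios of chr13.tRNA66 (-0.33), chr13.tRNA994 (-0.51), chr13.tRNA999 (-0.45) and chr19.tRNA109 (-0.66). Beside that of chr1.tRNA710, 146 values of named members and of initiator methionine stayed within their counting interval under the alternatives, and 40 left it. The uncalled values just listed are among the 40. Median-of-ratios scaling and 1 added kept the counts within 1.5 times in both pairs. Leaving out the member with the most counts, an alternative chosen after seeing the data, put Ala-AGC in Hepa 1-6 cells at 0.35 in place of 0.01 (without chr13.tRNA71), turned Ile-AAT to 0.12 and Val-CAC to 0.13, and put initiator methionine at -0.49 in place of -0.03 (without chr3.tRNA792).

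In mRNA, 0 pathway genes were called under DESeq2, RLE, no filter, the replicate block and without each sample in turn (0 to 0). With the replicate block, edgeR called 292 genes higher and 339 lower of 14142, Trim28 among them at -2.48. The markers Alb (-0.96) and Apoa1 (-1.36) were called lower and Col1a1 (0.72) higher. Of the pathway genes, 15 of 69 had an adjusted p under 0.05 at less than 1.5-fold. The number of all genes at that adjusted p and any size is not given here. At an unadjusted p under 0.05 in this fit were 25 of the 69 pathway genes and 4627 of all 14142 genes. Same-numbered samples deviated together (correlation 0.8 across genes, which are not independent), but with 2 pairs only the number joins them. A ratio of 2 single libraries has no error estimate beyond counting. Members with few counts have wide counting intervals, so a 1.5-fold ratio in them is not a reliable difference.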
